A study of Mus musculus with 2 samples.

Results

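The genes described here were 10 vascular genes, chosen by symbol, which are 10 of the 19059 genes in the count matrices: the angiopoietins Angpt1 and Angpt2 and their receptor Tek, the tip-cell gene Esm1, the peptide Apln and its receptor Aplnr, the permeability gene Plvap, and the blood-brain barrier genes Cldn5, Mfsd2a and Ocln. They were followed in brain tumors grown in C57BL/6J mice from a single mouse glioblastoma stem cell line, mGSC, which carries Trp53+/- and Nf1+/-. The mice received either vehicle or Xevinapant every day by oral gavage for a week. Xevinapant is a SMAC mimetic, a small molecule that antagonizes inhibitor of apoptosis proteins. The implanted tumor cells in both groups therefore share 1 line and 1 genotype, whereas endothelial, mural and immune cells came from the host mice. Pool and batch date followed the treatment, so that neither can be told apart from it.

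In the vessel wall, Angpt1 is a ligand that activates the receptor tyrosine kinase Tek (TIE2) and keeps endothelium quiescent, whereas Angpt2 is released by endothelial cells themselves and can oppose this signal. Tip cells lead a growing sprout and are known for Esm1, Apln and Angpt2, while Aplnr is the receptor for apelin on endothelial cells behind them. Brain endothelium normally seals its junctions with Cldn5 and Ocln, limits transcytosis through the lipid transporter Mfsd2a, and lacks Plvap, which forms the diaphragms of fenestrae and caveolae in leaky vessels.

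The data were UMI counts (counts of distinct transcript molecules) from single cells, in 8 matrices of 4505 to 14728 barcodes and 71835789 to 300206053 UMIs, with a median of 7452 to 14027 UMIs per barcode. After filters and doublet removal 50669 of 56943 barcodes were left. Vehicle matrices 1 and 3, Xevinapant matrices 1 and 2, and Xevinapant matrices 3 and 4 were so alike in their tumor cells (deviation 1.252 to 2.449 times the sampling error, against 4.732 to 8.169 for the 9 other pairs within a group) that each pair was counted as 1 sample. This left 3 vehicle samples (vehicle 1+3, vehicle 2 and vehicle 4) and 2 Xevinapant samples (Xevinapant 1+2 and Xevinapant 3+4). Nothing in the labels states which tumors the matrices came from. The paper describes as many tumors in each group as there are matrices, so that alike matrices may still be separate tumors. The p-values measure the spread between the joined samples only. The choice matters: for Xevinapant in tumor cells edgeR called 0 genes with the joined samples and 788 with each matrix as a sample. Compared by their leading bases, a vehicle and a Xevinapant matrix of the same number shared 178 to 528 barcodes, against 36 to 204 for other numbers. Matrices within a group shared 321 to 1603. Barcodes identical over their whole length in more than 1 matrix belonged to 2 endothelial, 1 mural and 491 tumor cells. Leaving these out changed no call for the 10 genes in the comparisons of treatment and of cell class. Barcodes alike only in their leading bases were kept.

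Cells were gated by marker UMIs that did not include the 10 genes. The gate gave 222 endothelial cells (27, 21, 45, 53 and 76 in vehicle 1+3, vehicle 2, vehicle 4, Xevinapant 1+2 and Xevinapant 3+4), 79 mural cells, 571 fibroblasts, 3499 immune cells and 37570 tumor cells. All 11 endothelial markers found in the files, Pecam1 and Cdh5 among them, had UMIs in the endothelial cells, each in 41.9% to 96.8% of them. These markers, like the mural ones that follow, defined the gate, so that their detection is no separate check of the cell type. The mural cells carried 9 of 10 mural markers, with the pericyte gene Atp13a5 at 0, but 68 of the 79 also passed the fibroblast panel, whose summed level in them was 28028 to 92732 CPM, so that they are mural cells by the rule of the gate and could equally be called fibroblasts with mural markers. The tumor gate used genes such as Sox2, Olig1, Olig2, Sox10 and Pdgfra, which host glial cells can also express. The paper separated malignant cells by inferred copy number, which was not done here. The class called tumor may thus hold host glial cells, and their part was not tested. Endothelial cells were shallower (median 3946.5 UMIs) than mural (8596) and tumor cells (13408). For that reason shares of cells with a UMI are given as counted and, where they are compared between classes or groups, after each cell was thinned to 2000 UMIs, with shallower cells left out. CPM is the summed UMIs of a gene or panel per 1000000 UMIs of that class in that sample. CPM levels of different genes were not compared, because gene length and capture were not corrected. Where shares of cells with a UMI are set side by side for different genes, they carry the same limit.

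In the samples, 7 of the 10 genes were at their highest in endothelial cells. The sequence upstream of the start site is shown for 4 of them, as genes that share this pattern and differ in role: the receptor Tek, the tip-cell genes Esm1 and Apln and the junction gene Cldn5. RefSeq promoter windows for build GRCm38.p6 matched 6 of the 10 genes (all but Angpt1, Angpt2, Aplnr and Plvap) in 7 entries. Each sequence is the 250 bases before the start, 5′ to 3′ on the strand of the gene, with capitals marking the letters CAGGAA on either strand, a core recognized by ETS factors. The windows are Tek at chr4:94739039-94739288 (plus strand), Esm1 at chr13:113209409-113209658 (plus strand), Apln at chrX:48034854-48035103 (minus strand) and Cldn5 at chr16:18776597-18776846 (plus strand).
Tek: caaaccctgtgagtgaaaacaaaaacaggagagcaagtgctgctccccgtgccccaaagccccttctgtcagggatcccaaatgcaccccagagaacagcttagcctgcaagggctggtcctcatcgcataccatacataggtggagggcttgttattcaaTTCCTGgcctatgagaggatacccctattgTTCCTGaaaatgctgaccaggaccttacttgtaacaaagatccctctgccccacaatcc
Esm1: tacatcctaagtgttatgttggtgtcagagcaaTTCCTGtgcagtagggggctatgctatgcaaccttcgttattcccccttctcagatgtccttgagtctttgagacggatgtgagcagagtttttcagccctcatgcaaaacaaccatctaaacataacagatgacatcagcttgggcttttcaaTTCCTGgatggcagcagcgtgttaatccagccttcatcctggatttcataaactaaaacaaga
Apln: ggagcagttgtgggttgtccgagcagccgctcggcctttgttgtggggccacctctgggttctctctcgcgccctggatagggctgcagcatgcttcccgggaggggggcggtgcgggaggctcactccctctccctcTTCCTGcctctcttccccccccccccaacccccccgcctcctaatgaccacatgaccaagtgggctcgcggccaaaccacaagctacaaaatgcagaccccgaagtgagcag
Cldn5: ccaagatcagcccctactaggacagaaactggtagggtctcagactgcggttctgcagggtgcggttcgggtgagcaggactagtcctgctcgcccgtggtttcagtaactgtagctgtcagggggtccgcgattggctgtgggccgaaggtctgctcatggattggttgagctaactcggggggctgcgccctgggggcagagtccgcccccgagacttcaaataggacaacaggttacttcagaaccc
Tek and Esm1 each had 2 matches, Apln had 1 and Cldn5 had 0, and 25.7% of 32851 promoter windows of the same length held at least 1. The letters ACGTG or GCGTG on either strand, found in hypoxia-response elements, occurred once in the Esm1 window and 0 times in those of Tek, Apln and Cldn5, against 38.6% of all windows. These matches describe the letters only.

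Angpt2 (chr8:18690263-18741562 on mm10, minus strand) was the angiopoietin of the endothelial cells. Its endothelial level was 577 CPM in vehicle 1+3, 1520 in vehicle 2, 638 in vehicle 4, 488 in Xevinapant 1+2 and 773 in Xevinapant 3+4 (799 ± 416, SD, n = 5). Vehicle 2 stood well above the other samples, which lay close together. Angpt2 had a UMI in 53.2% of the 222 endothelial cells. At 2000 UMIs the share was 28.6% to 55.6%, against 0% to 0.297% of immune cells at the same depth. In mural cells the level was 62.1 ± 46.8 CPM (6.21 to 106) and in fibroblasts 9.53 ± 4.83 CPM, with 2.52 ± 1.27 in immune and 2.77 ± 1.44 in tumor cells. The last 2 classes did not differ beyond their spread.

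Angpt1 (chr15:42424723-42676977, minus strand) was nearly absent from endothelial cells, with 10 UMIs in 7 of 222 cells. Its mural level was 28.7, 37.3, 23.5, 34.2 and 38.6 CPM in the same order of samples (32.5 ± 6.28, n = 5), resting on 42 UMIs. In tumor cells it was 21.2, 23.5, 20.8, 14.5 and 26.4 CPM (21.3 ± 4.37, 14569 UMIs). The mural and tumor ranges overlapped at 23.5 to 26.4 CPM. Fibroblasts had 16.5 ± 4.95 CPM and immune cells 9.10 ± 4.13, while endothelial cells had 5.02 ± 4.99, at 0 UMIs in vehicle 2 and vehicle 4. The ligand that activates TIE2 had its lowest mean level in the class with the highest level of the receptor.

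Tek (chr4:94739289-94874976, plus strand), the angiopoietin receptor whose promoter is printed above, was at 388, 147, 186, 162 and 158 CPM in endothelial cells (208 ± 102), and had a UMI in 50.5% of them. Vehicle 1+3 was the high sample, and the other 4 lay within 147 to 186 CPM. Tek was at 4.73 ± 5.19 CPM in mural cells (5 UMIs in all), 4.72 ± 4.63 in fibroblasts, 0.268 ± 0.279 in immune and 0.0976 ± 0.0258 in tumor cells. Of the 9 genes of the angiopoietin-TIE pathway list, Tie1, the second TIE receptor, was in 78.8% of endothelial cells (675 ± 113 CPM), whereas the ligand Angpt4 and the adaptor Dok2 had no UMI there.

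Esm1 (chr13:113209659-113218098, plus strand), which encodes the secreted proteoglycan endocan, was at 1155, 3094, 2287, 944 and 1411 CPM in endothelial cells (1778 ± 896) and had a UMI in 67.1% of them. The spread was more than 3-fold between the lowest sample, Xevinapant 1+2, and the highest, vehicle 2. At 2000 UMIs it was found in 42.9% to 77.8% of endothelial cells and in 0.128% to 0.890% of immune cells. The mural level of 35.4 ± 35.8 CPM had little breadth, since 44 of its 55 UMIs came from 1 cell of Xevinapant 3+4. Fibroblasts had 0 UMIs in vehicle 1+3 and vehicle 2, 4.08 CPM in vehicle 4, 38.6 in Xevinapant 1+2 and 19.4 in Xevinapant 3+4. Immune cells had 2.12 ± 1.10 CPM and tumor cells 1.29 ± 0.264.

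Apln (chrX:48025146-48034853, minus strand), the precursor of the peptide apelin, was at 2551, 2575 and 2394 CPM in the endothelial cells of the vehicle samples and at 1721 and 1010 CPM in those of the Xevinapant samples (2050 ± 677 over all 5). The 2 groups did not overlap. A random split of 3 against 2 samples separates the groups with a probability of 0.2, here and below. Apln had a UMI in 71.6% of endothelial cells. Fibroblasts came next, with 37.8, 10.9 and 67.3 CPM in the vehicle and 209 and 133 CPM in the Xevinapant samples, again without overlap but in the opposite order, a difference that was not tested. Mural cells had 34.3 ± 28.1 CPM and tumor cells 26.3 ± 8.07 (24.99, 16.5, 25.3, 39.0 and 25.4), the tumor range lying inside the mural one, and immune cells had 8.58 ± 3.26. At 2000 UMIs Apln was found in 3.34% to 6.64% of tumor cells, above the 0.466% to 1.76% of immune cells.

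Aplnr (chr2:85136225-85139923, plus strand), the apelin receptor, was at 1002, 153, 869, 1168 and 474 CPM in endothelial cells (734 ± 413), in 48.2% of them. Vehicle 2, which had the most Angpt2 and Esm1, had the least Aplnr. Outside the endothelium Aplnr was at 5.11 ± 4.55 CPM in mural cells (4 UMIs), 1.54 ± 1.07 in fibroblasts, 0.624 ± 0.451 in immune and 0.288 ± 0.0226 in tumor cells. The third gene of the apelin list, the second apelin receptor ligand Apela, had no UMI in endothelial cells.

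Plvap (chr8:71497765-71511752, minus strand) had a UMI in 80.2% of endothelial cells, the highest share among the 10 genes, at 1763, 931, 1138, 1220 and 900 CPM (1191 ± 348). All 5 samples were within a factor of 2 of one another. Mural cells had 34.2 ± 29.1 CPM, fibroblasts 6.73 ± 2.77, immune cells 6.20 ± 2.87 and tumor cells 9.66 ± 2.44 (9.43, 13.8, 7.24, 8.80 and 9.07). At 2000 UMIs Plvap was found in 1.27% to 2.67% of tumor cells, a range that overlapped the 0.233% to 1.48% of immune cells.

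The 3 barrier genes differed in the endothelial cells. Cldn5 (chr16:18776847-18778262, plus strand), the main claudin of brain endothelial tight junctions, was at 472, 519, 348, 355 and 858 CPM in endothelial cells (510 ± 208), in 59.5% of them, with Xevinapant 3+4 highest. Elsewhere it was at 6.38 ± 4.29 CPM in mural cells (5 UMIs), 0.216 ± 0.339 in fibroblasts, 0.182 ± 0.238 in immune and 0.106 ± 0.0324 in tumor cells. Mfsd2a (chr4:122946850-122961188, minus strand) had 14 UMIs in 4 endothelial cells, all of them in Xevinapant 3+4. Of 93 vehicle endothelial cells 0 had an Mfsd2a UMI, which allows a share of cells with a UMI of up to 3.23%. Ocln (chr13:100496507-100552718, minus strand), the tight-junction protein occludin, had a UMI in 0 of 222 endothelial cells, which allows a share of cells with a UMI of up to 1.35%, and in 10 of 37570 tumor cells. Such limits cover counting error only, and at a median of 3946.5 UMIs they do not bound the share of cells that express the gene.

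**Figure D1:**
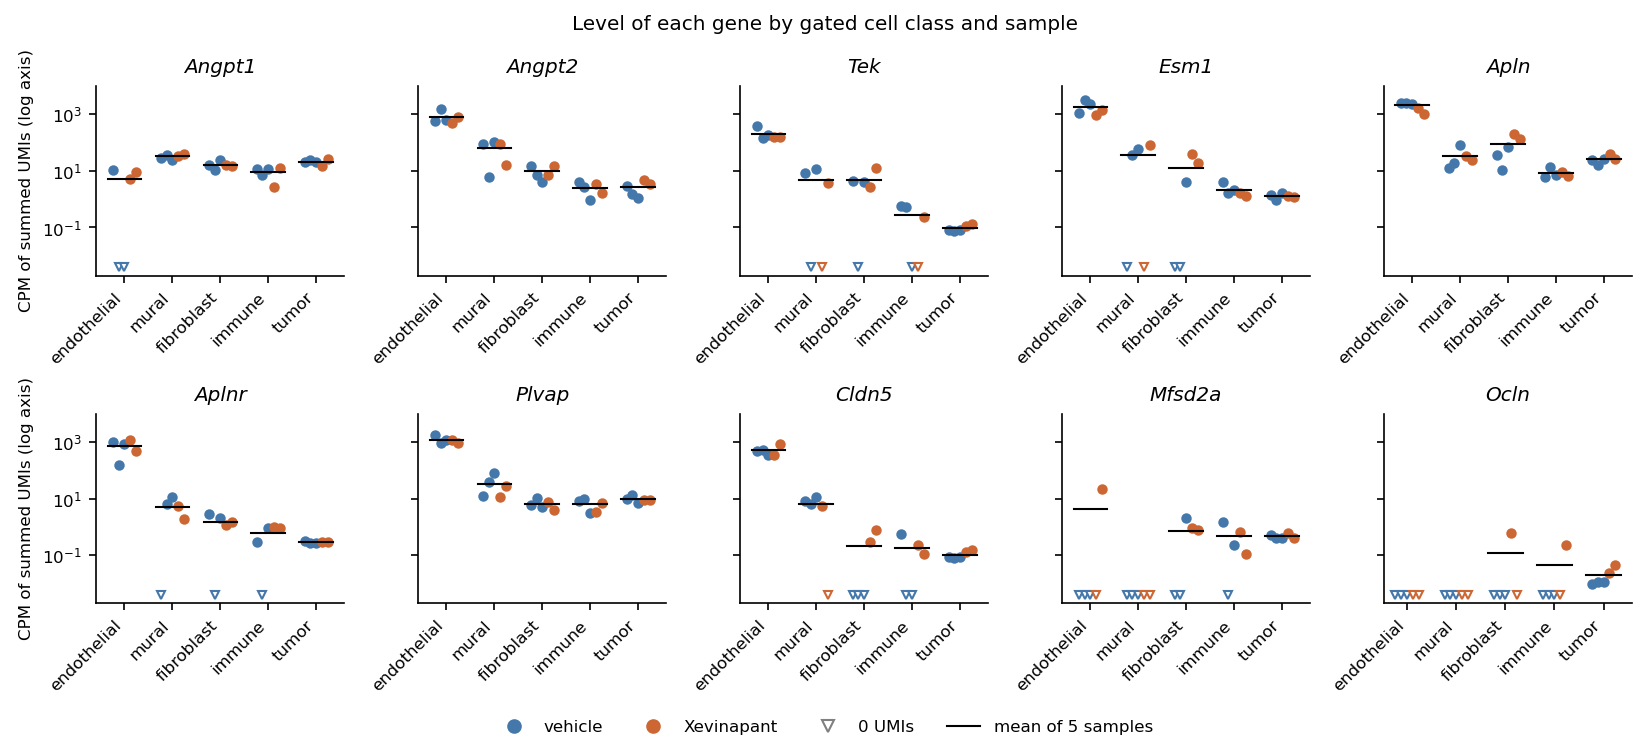
Level of each of the 10 genes (CPM of summed UMIs, log axis) in 5 gated cell classes. Points are the 5 samples, blue for vehicle and orange for Xevinapant, open triangles mark 0 UMIs and black lines the means. In 7 genes every endothelial point lies above every point of the other classes, whereas Angpt1 has its lowest mean there and Ocln has no endothelial UMI.

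The endothelial cells can be set against wider lists of genes with the same roles. Of 18 tip-cell genes, 17 had a UMI in at least 25% of the 222 endothelial cells, with a median share of 73.9%. Dll4, the Notch ligand of tip cells, was in 79.7% (1037 ± 220 CPM) and Kdr, the main VEGF receptor, in 82.4% (993 ± 320 CPM). Of 31 barrier genes, 12 were in less than 5% of endothelial cells, and the median share was 13.5%. Ocln and the transporter genes Slc22a8, Slc38a5, Slco1a4 and Slco1c1 had no UMI in any endothelial cell. Transporters that were found included Slc2a1, the glucose transporter GLUT1, in 59.9% of cells (321 ± 116 CPM), Abcg2, a drug efflux pump, in 29.3%, and Abcb1a, which encodes P-glycoprotein, in 16.2%. Tjp1, the junction scaffold ZO-1, was in 71.2%. The 12 permeability and leukocyte adhesion genes had a median share of 34.5%. These shares are for the capture and depth of these cells, were not corrected for gene length, and do not rank the lists by expression. No normal brain endothelium was measured beside them.

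**Figure D2:**
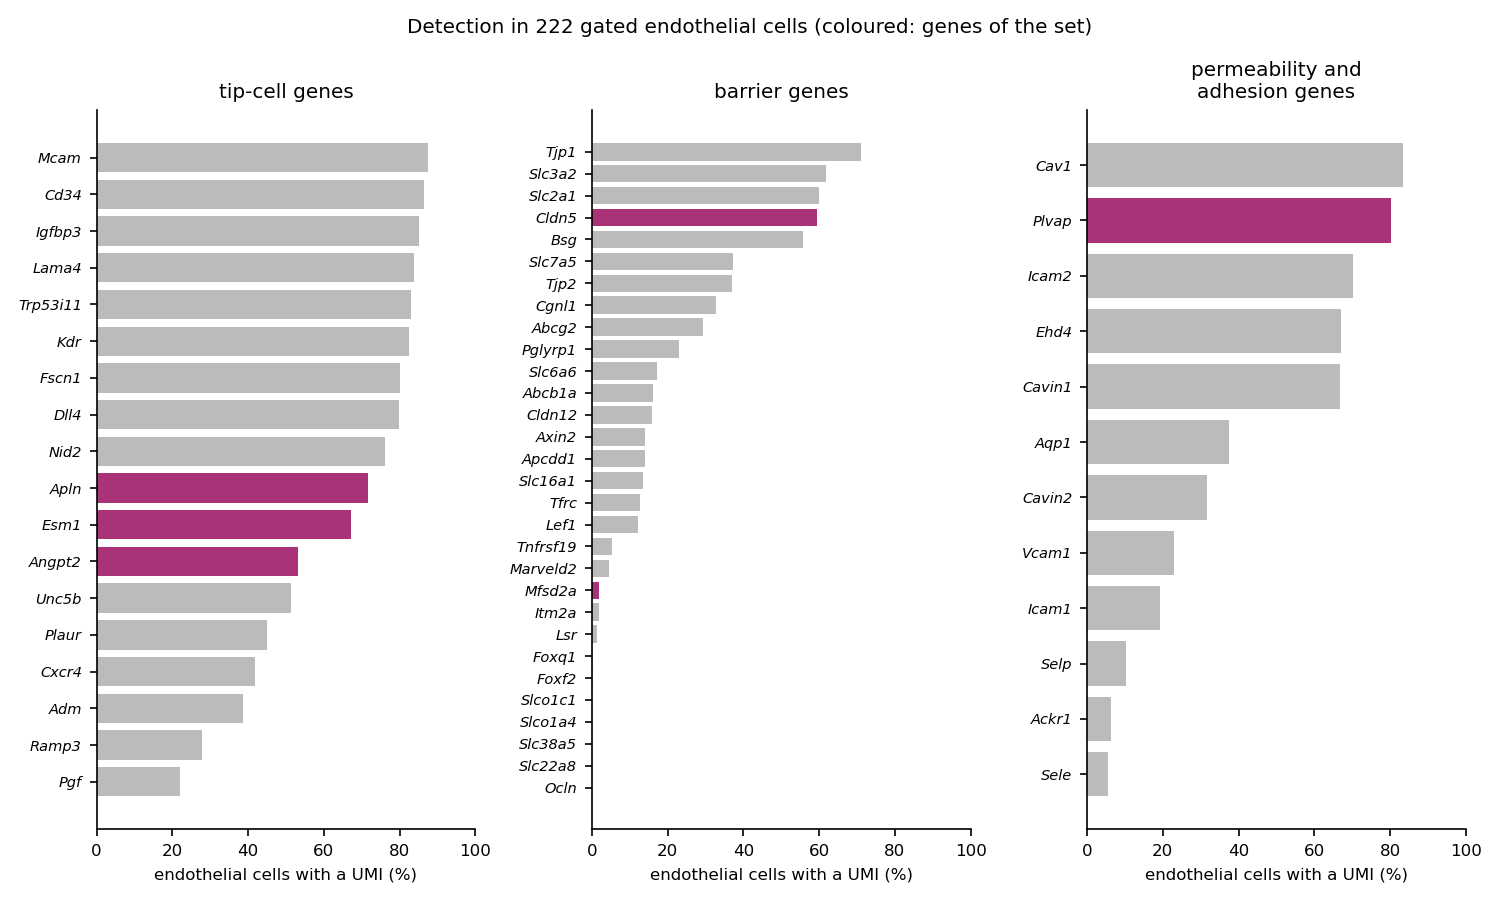
Share of the 222 gated endothelial cells with a UMI (percent, bars from 0) for genes of the tip-cell, barrier, and permeability and adhesion lists, with the 10 genes coloured. Tip-cell genes sit mostly above 50%, while the barrier list runs from 71.2% for Tjp1 down to 0.

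Within the endothelium, Angpt2, Esm1 and Apln were each found more often in cells with one of the other two than in cells without it. Among 178 endothelial cells thinned to 2000 UMIs, Angpt2 had a UMI in 62.4% of the 101 cells with Esm1 and in 16.9% of the 77 without, and the share was higher with Esm1 in 5 of 5 samples. Apln was in 81.2% of cells with Esm1 and in 48.1% of cells without (5 of 5 samples). Angpt2 was in 52.1% of cells with Apln and in 23.7% of cells without (higher in 4 of 5 samples), with 62 cells holding both genes, 14 Angpt2 only and 57 Apln only. For the receptors the picture depended on the pair. Aplnr was in 33.7% of cells with Esm1 and 59.7% of cells without, lower in 5 of 5 samples, and Tek was in 18.4% of cells with Angpt2 and 43.1% of cells without, also lower in 5 of 5. Tek was in 27.7% of cells with Esm1 and 39.0% without, but higher with Esm1 in 2 of 5 samples, and in 33.6% of cells with Apln and 30.5% without. The 2 receptors in turn were found together, with Aplnr in 58.6% of cells with Tek and 38.3% of cells without (higher in 5 of 5 samples). Aplnr was in 43.7% of cells with its ligand Apln and 47.5% without, higher with Apln in 1 of 5 samples. Plvap and Cldn5 were not mutually exclusive, since Plvap was in 85.7% of cells with Cldn5 and 70.2% of cells without (higher in 3 of 5 samples). Both could also be found more often with a tip-cell gene. Plvap was in 85.5% of cells with Angpt2 and 71.6% without (higher in 5 of 5), and Cldn5 in 55.4% with Esm1 and 36.4% without (4 of 5). With Esm1, however, Plvap was in 76.2% of cells and without it in 79.2% (higher in 2 of 5). In these cells the median number of the 10 genes found per cell was 4, with 4 or more in 58.4% of cells and none in 7 cells. Cells of a sample share their library, so these shares are a description and carry no test.

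**Figure D3:**
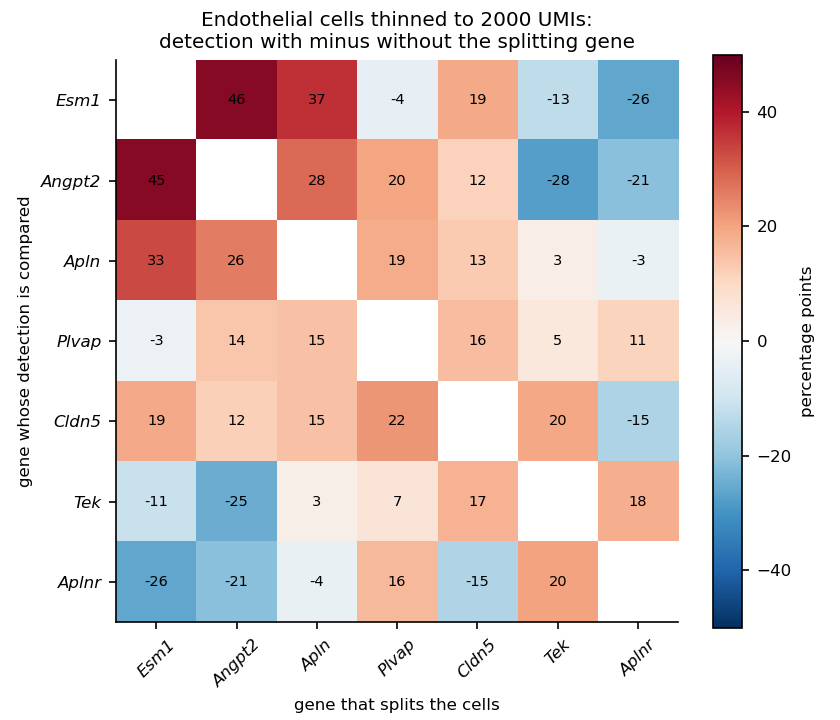
Difference in detection, in percentage points, of the row gene between the thinned endothelial cells with and without the column gene (178 cells, 5 samples). Esm1, Angpt2 and Apln form a block of positive differences, Tek and Aplnr a positive pair, and the cells between Angpt2 or Esm1 and the 2 receptors are negative in these pooled shares. Positive differences also lie outside these, as for Plvap and Cldn5 with Angpt2 or Apln.

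The first comparison asked in which cell class each gene was higher, within the same samples. Fitted with edgeR over all genes and with sample as a block, 8 of the 10 genes passed the filter on low counts (Mfsd2a and Ocln did not), and 7 were higher in endothelial than in tumor cells. The log2 differences were 12.44 ± 0.32 (SE) for Cldn5, 11.36 ± 0.38 for Aplnr, 11.16 ± 0.31 for Tek, 10.52 ± 0.56 for Esm1, 8.45 ± 0.54 for Angpt2, 7.20 ± 0.33 for Plvap and 6.51 ± 0.36 for Apln, with adjusted p between 5.95e-14 for Cldn5 and 1.45e-09 for Angpt2. Angpt1 was lower in endothelial cells by a log2 difference of -1.67 ± 0.48 (adjusted p = 0.00931). Of all genes, 47.4% were called in this comparison. The median log2 difference was 9.48 over the 8 genes and -0.098 over all genes tested. The low-count filter took endothelial, mural and tumor sums together, so that a gene could pass by the class in which it was high. The 7 genes higher in endothelial cells also passed the filter on tumor sums alone, in the treatment fit below. The median endothelial cell held 4.36% to 11.3% of the tumor-panel level of tumor cells, and without the limit on that level in the gate the Angpt1 difference was -0.37 (adjusted p = 0.255). With the low-count filter on endothelial and tumor sums alone, added after the data were seen, Mfsd2a was tested too (3.28 ± 1.21, adjusted p = 0.0387), with all its endothelial UMIs in Xevinapant 3+4.

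How far the endothelial genes were found in tumor cells can be read beside endothelial genes that were not used in the gate. By the gate, tumor cells held UMIs of at most 2 endothelial panel genes, and the part of this limit in the percentages was not tested. The tumor level of Tie1 had a median over samples of 0.0221% of its endothelial level, that of Ptprb, the phosphatase that restrains TIE2, 0.117% and that of Kdr 0.278%. Cldn5 (0.0177%), Aplnr (0.0315%), Tek (0.0523%) and Esm1 (0.0821%) lay within or below this range. The medians of Angpt2 (0.446%), Plvap (0.721%) and Apln (1.06%) lay above it. Over samples Angpt2 ran from 0.104% to 0.959%, which overlapped the range of Kdr (0.156% to 0.404%), whereas the lowest sample of Plvap (0.535%) and of Apln (0.642%) lay above that of every sample of the 3 reference genes. The range is that of these 3 genes only. Mcam, also higher in endothelial cells and outside the gate, was at 1718 ± 197 CPM in them and 64.4 ± 19.0 CPM in tumor cells.

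The wider lists can be read in the same comparison beside all genes, of which 2495 were higher and 2442 lower of 10406 tested. Lists were not tested against each other, and the shared filter again let a gene pass by the class in which it was high. All 18 tip-cell genes were higher in endothelial than in tumor cells (median log2 difference 6.32), led by Esm1, Cd34 (9.69 ± 0.37), Dll4 (9.15 ± 0.37) and Kdr (8.94 ± 0.39). In the permeability and adhesion list 10 of 11 tested genes were higher, led by Selp, the adhesion receptor P-selectin (12.17 ± 0.48), and Icam2 (10.38 ± 0.28), and Vcam1 was lower (-1.27 ± 0.24). The angiopoietin-TIE list had 5 higher and 1 lower of 7 tested, with Tie1 at 12.49 ± 0.23 and Ptprb at 10.17 ± 0.26. Of 20 barrier genes tested, 9 were higher, among them Abcb1a (10.00 ± 0.62), the antimicrobial peptidoglycan recognition gene Pglyrp1 (9.35 ± 0.63) and the junction gene Cgnl1 (4.03 ± 0.35), and 7 were lower, among them Itm2a (-2.24 ± 0.71), Tnfrsf19 (-1.40 ± 0.39), the taurine transporter Slc6a6 (-1.16 ± 0.29) and the monocarboxylate transporter Slc16a1 (-1.09 ± 0.26), with a median of 0.40. Several barrier genes, such as Slc3a2 (257 ± 69.1 CPM in endothelial and 269 ± 24.6 CPM in tumor cells), had a high level in the tumor cells as well.

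Mural against endothelial cells separated the 2 angiopoietins. Angpt1 was higher in mural cells by a log2 difference of 2.48 ± 0.56 (adjusted p = 0.00377), and the other 7 genes tested were lower, from -3.61 ± 0.59 for Angpt2 to -7.94 ± 0.57 for Aplnr. All 8 were called, where 21.1% of all genes were. On mural sums alone, in the treatment fit below, only Angpt2 and Esm1 passed the low-count filter. The other genes lower in mural cells thus entered this comparison by their sums in other classes. The Angpt1 call was lost when the gate asked for 1 panel gene more (1.76, adjusted p = 0.179). Angpt1 also passed the low-count filter, which the 3 classes shared, only with the tumor sums in it. With the filter on mural and endothelial sums alone Angpt1 was not tested. The other 7 were called there, but that filter still held the endothelial sums in which they were high. Against tumor cells, 5 of the 8 genes were higher in mural cells, where 28.3% of all genes were called: Tek (5.64 ± 1.08), Cldn5 (5.17 ± 1.26), Esm1 (5.10 ± 0.71), Angpt2 (4.84 ± 0.67) and Plvap (1.76 ± 0.48). Angpt1 differed by 0.81 ± 0.40 (adjusted p = 0.150), Apln by 0.50 ± 0.47 and Aplnr by 3.42 ± 1.46 (adjusted p = 0.0962). Tek and Cldn5 rest on 5 mural UMIs each, the endothelial panel summed to 182 to 706 CPM in mural cells and to 27.1 to 33.8 CPM in tumor cells, and the part of endothelial RNA in these values was not tested. With the filter on mural and tumor sums alone, Tek (5.58) and Cldn5 (5.11) were still tested and called. With 1 panel gene more the count of 5 was 2, and the Cldn5 difference turned to -5.97; without Xevinapant 3+4 the count was 3.

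The tumor cells were then split by a hypoxia panel (11 genes such as Ndrg1, Bnip3, Egln3 and Car9, none of the 10 genes among them), with the highest 10% of each matrix (3760 cells) set against the rest (33810 cells). Apln showed the largest difference of the 7 genes tested. Its level was 115, 80.9, 110, 157 and 113 CPM in the hypoxia-high cells and 17.0, 11.1, 18.3, 27.9 and 18.0 CPM in the other tumor cells of the same samples. The 2 sets did not overlap, and the log2 difference was 2.75 ± 0.060 (adjusted p = 1.93e-07). Even so, the hypoxia-high tumor cells stayed below the endothelial level of Apln (1010 to 2575 CPM). Aplnr was also higher (1.49 ± 0.37, adjusted p = 0.00792, higher in 5 of 5 samples), but on 35 UMIs and at 0.421 to 1.13 CPM. Plvap was lower (-0.40 ± 0.11, adjusted p = 0.0152), a call that was lost with the highest 25% as hypoxia-high (-0.20, adjusted p = 0.077). Angpt2 differed by 0.62 ± 0.24 (adjusted p = 0.0578), Angpt1 by -0.27 ± 0.11 (adjusted p = 0.0641), Esm1 by 0.55 ± 0.25 and Mfsd2a by -0.85 ± 0.52. The 3 calls of 7 tested compare with 58.6% of all genes called in this split. In the same split the tip-cell list had 7 higher and 2 lower of 18, led by Adm, the vasodilator adrenomedullin (3.17 ± 0.27), Apln, Unc5b (1.92 ± 0.23) and Plaur (1.51 ± 0.26), whereas Kdr was lower (-0.84 ± 0.19). The fibroblast panel was higher in hypoxia-high cells in 5 of 5 samples (31.2 to 374 against 27.8 to 246 CPM) and the immune panel in 4 of 5, while the mural (55.9 to 88.5 against 71.9 to 95.7 CPM) and tumor panels were lower in 5 of 5. Those cells had fewer UMIs (mean 13837 against 17902), and the part of any of these in the values was not tested.

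Splits of the same kind by 3 other marker panels were chosen after the data were seen. The astrocyte-like panel (AC; Mlc1, Gfap, Id4 and Clu) went with higher levels of both angiopoietins. Angpt1 was at 68.3, 77.2, 90.4, 61.7 and 102 CPM in the AC-high tumor cells and at 17.2, 19.5, 14.5, 10.2 and 19.6 CPM in the rest (log2 difference 2.37 ± 0.11, adjusted p = 4.80e-07). Angpt2 was at 11.2, 9.57, 4.05, 14.7 and 10.8 CPM against 2.35, 0.993, 0.838, 3.75 and 2.78 CPM (2.36 ± 0.19, adjusted p = 6.21e-06). Both genes were higher in 5 of 5 samples, and neither gene's values in the 2 sets overlapped. Plvap was higher by 1.11 ± 0.16 (18.7 ± 5.69 against 8.87 ± 2.48 CPM) and Apln lower by -0.49 ± 0.14, while Aplnr (0.22 ± 0.38), Cldn5 (0.99 ± 0.52) and Mfsd2a (0.52 ± 0.40) were not called. Esm1 (0.87 ± 0.31, adjusted p = 0.0346) was no longer called without any one of 4 of the 5 samples (adjusted p = 0.0609 to 0.117), all but Xevinapant 3+4, and Ocln (3.87 ± 1.05) rests on 9 against 6 UMIs and was not tested without any one of the 5 samples. The 6 calls of 9 compare with 65.7% of all genes called, and became 4 without any one of those 4 samples and 5 without Xevinapant 3+4. The mural panel was also higher in AC-high cells, at 331 to 403 against 46.5 to 67.4 CPM, of which the receptor gene Notch3 made up 336 ± 29.4 against 44.9 ± 9.52 CPM, Heyl 18.6 ± 4.55 against 8.26 ± 1.36 CPM, Cox4i2 3.20 ± 1.89 against 0.598 ± 0.214 CPM and Pdgfrb 2.83 ± 1.14 against 0.488 ± 0.294 CPM, each higher in 5 of 5 samples. The other 6 mural genes (Rgs5, Kcnj8, Abcc9, Higd1b, Atp13a5 and Myh11) were at means of 0.00516 to 0.944 CPM and were higher in AC-high cells in 1 to 4 of 5 samples. The immune panel was higher in AC-high cells in 5 of 5 samples (45.8 to 93.4 against 37.0 to 81.4 CPM) and the endothelial panel lower in 5 of 5 (24.0 to 28.8 against 27.3 to 34.2 CPM). AC-high cells also had fewer UMIs (mean 13996 against 17885). The part of these in the values was not tested, nor that of host glial cells that may have passed the tumor gate.

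The neuronal-precursor panel (NPC; Rbfox3, Syp, Dcx and Igfbpl1) gave 2 calls of 8, where 42.3% of all genes were called: Angpt2 (-1.37 ± 0.27, adjusted p = 0.00397) and Plvap (-0.53 ± 0.12, adjusted p = 0.00657) were lower in NPC-high cells. The genes not called were Apln (-0.39 ± 0.16), Esm1 (-0.50 ± 0.25), Mfsd2a (-0.12 ± 0.39), Angpt1 (0.22 ± 0.12), Aplnr (0.90 ± 0.43) and Cldn5 (1.23 ± 0.64). Without vehicle 4 there were 4 calls, with Apln at -0.62 (adjusted p = 0.00122) and Cldn5 at 1.65 (adjusted p = 0.0479). In NPC-high cells the mural panel (25.7 to 36.0 against 74.3 to 100.2 CPM) and the fibroblast panel were lower and the immune panel (53.1 to 92.5 against 36.2 to 81.5 CPM) higher in 5 of 5 samples, and these cells had fewer UMIs (mean 14922 against 17782). The cell cycle panel (Mki67, Top2a, Cenpf, Ube2c and Birc5) gave 4 calls of 7, all lower in the cycling-high cells, where 65.5% of all genes were called: Angpt2 (-1.67 ± 0.20), Plvap (-0.89 ± 0.089), Angpt1 (-0.62 ± 0.12) and Apln (-0.28 ± 0.050). Esm1 (0.0024 ± 0.24), Aplnr (-0.26 ± 0.32) and Mfsd2a (-0.41 ± 0.28) were not called. The cycling-high cells had more UMIs (mean 23598 against 16817), and the endothelial, mural (28.5 to 44.8 against 77.4 to 103 CPM) and immune panels were lower in them in 5 of 5 samples. The part of depth and of these panels in the values of the 2 splits was not tested.

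**Figure D4:**
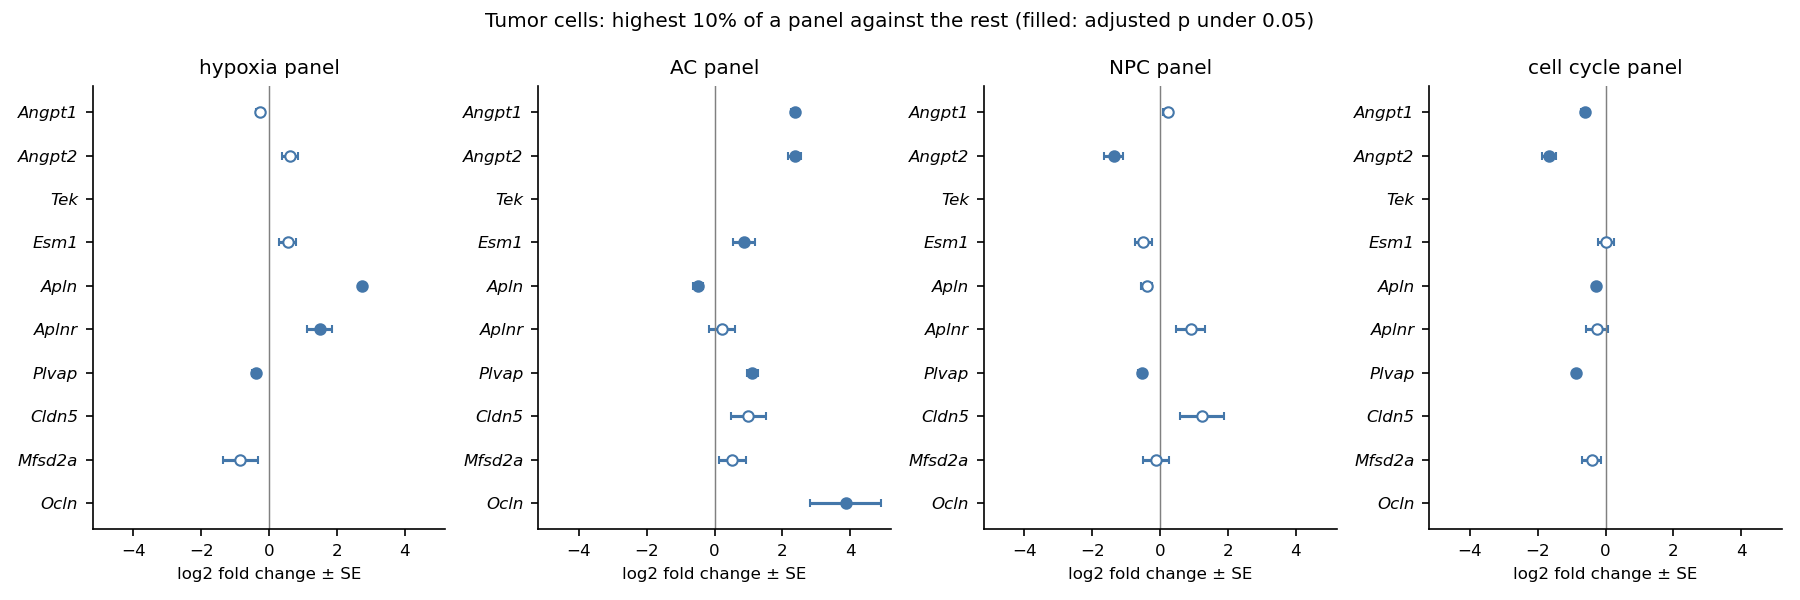
Log2 difference (± SE, edgeR) of each gene between the highest 10% of tumor cells by a panel and the rest, for the hypoxia, AC, NPC and cell cycle panels. Filled points have an adjusted p under 0.05. Apln stands at 2.75 with hypoxia, Angpt1 and Angpt2 near 2.4 with the AC panel, and all 4 filled points of the cell cycle panel lie below 0.

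Endothelial cells were split by a barrier panel of transporters and other brain endothelial genes (9 genes), with cells above the median of their sample as barrier-high. This gave 94 barrier-high and 128 other cells. Cells tied at the median counted as other, which left 14 against 39 cells in Xevinapant 1+2. Slco1c1, Slco1a4, Slc38a5 and Slc22a8 had no UMI in endothelial cells, and Foxq1 (0.450%) and Itm2a (1.80%) were in few. The split thus rests mainly on Abcg2 (29.3% of cells), Pglyrp1 (23.0%) and Abcb1a (16.2%). Abcg2 was also found outside the endothelium, at 95.5 ± 40.1 CPM in endothelial, 37.3 ± 6.58 in mural and 47.2 ± 9.25 in tumor cells. None of 7 genes tested was called, by edgeR, and 0% of all 4516 genes were called, with 225 at an unadjusted p under 0.05. Aplnr was at 1429, 137, 1131, 1314 and 554 CPM in barrier-high cells and at 471, 179, 384, 874 and 280 CPM in the others. It was higher in 4 of 5 samples (0.96 ± 0.32, unadjusted p = 0.00845, adjusted p = 0.855). Tek was higher in 5 of 5 samples, at 230 ± 95.1 against 167 ± 119 CPM (0.58 ± 0.24, unadjusted p = 0.0301, adjusted p = 0.944). Cldn5 differed by -0.20 ± 0.28, Plvap by 0.33 ± 0.31, Apln by 0.19 ± 0.35, Esm1 by -0.20 ± 0.39 and Angpt2 by -0.40 ± 0.36. The 14 Mfsd2a UMIs all lay in barrier-high cells, which were 35 of the 76 cells of that sample. Barrier-high cells were the deeper ones in 5 of 5 samples (mean 11767 against 4423 UMIs in all, and 12948 against 4525 in Xevinapant 3+4). The tumor panel was higher in them in 4 of 5 samples (639 to 2274 against 543 to 1872 CPM). The endothelial panel was higher in 3, the immune panel in 2 and the mural and fibroblast panels each in 1. The part of these in the values was not tested. With the split made on cells thinned to 2000 UMIs, 0 of the 7 genes were called, and Aplnr differed by 1.26 ± 0.35 (adjusted p = 0.285), Angpt2 by -1.23 ± 0.30 (adjusted p = 0.251), Tek by 0.97 ± 0.29 (adjusted p = 0.357) and Esm1 by -0.74 ± 0.30 (adjusted p = 0.712).

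The study's main question was what Xevinapant changed. In endothelial cells 0 of the 7 genes tested were called by edgeR and 0 by DESeq2, with Esm1 and Apln at an unadjusted p under 0.05, and 0.0137% of all 7285 genes were called by edgeR (1 gene, the collagen gene Col8a1, named after its value was seen; 548 at an unadjusted p under 0.05, and 6 called by DESeq2). The log2 difference of Xevinapant from vehicle was -0.92 ± 0.28 for Apln (adjusted p = 0.375), the gene whose endothelial values did not overlap between the groups. It was -0.92 ± 0.35 for Esm1 (adjusted p = 0.563), -0.62 ± 0.34 for Tek, -0.56 ± 0.37 for Angpt2 and -0.31 ± 0.29 for Plvap. Cldn5 (0.42 ± 0.32) and Aplnr (0.24 ± 0.50) differed in the other direction, but with 1 sample left out Cldn5 ran from -0.36 to 0.91 and Aplnr from -0.55 to 0.75. Cldn5 also had a UMI in fewer Xevinapant endothelial cells (66.4% ± 8.62 in vehicle against 55.6% ± 1.32, groups apart; 52.7% ± 28.4 against 46.3% ± 6.32 when thinned, with overlap). Without the filter on low counts, Esm1 (adjusted p = 0.0456) and Apln (adjusted p = 0.0471) passed. The tumor panel in endothelial cells was at 667 to 1644 CPM in vehicle and 608 to 1159 CPM in Xevinapant samples, and the mural panel at 283 to 424 and 435 to 487 CPM, without overlap; the part of either in the differences was not tested. With no limit on the tumor panel in the gate, the differences of Angpt2 (0.10), Tek (0.20) and Plvap (0.42) turned positive.

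No gene of the wider lists was called in endothelial cells. The median log2 difference was -0.56 over 5 angiopoietin-TIE genes (all 5 below 0), -0.34 over the 2 apelin genes tested, -0.18 over 18 tip-cell genes, -0.094 over 17 barrier genes and 0.22 over 11 permeability and adhesion genes, against -0.0093 over all genes tested. The smallest adjusted p in the lists belonged to the venular chemokine receptor Ackr1 (3.64 ± 0.61) and the water channel Aqp1 (1.64 ± 0.29), both at 0.0547, followed by Ramp3 (1.72 ± 0.36, adjusted p = 0.105) and Selp (2.60 ± 0.58, adjusted p = 0.143). These 4 genes were singled out after their values were seen. Ackr1 had a UMI in 14 of 222 endothelial cells (62.4 ± 86.4 CPM) and Selp in 23 (95.4 ± 106 CPM). Aqp1 was in 83 (351 ± 233 CPM) and Ramp3 in 62 (123 ± 101 CPM).

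In mural cells 2 of the 10 genes could be tested and 0 were called, where 0% of all 5673 genes were called by edgeR (288 at an unadjusted p under 0.05, 5 called by DESeq2): Angpt2 differed by -1.14 ± 0.70 and Esm1, whose Xevinapant UMIs came from the single cell named above, by 1.40 ± 1.38. Vehicle 2, with 8 mural cells, was not in this fit, and without Xevinapant 1+2 the Angpt2 difference was -2.63 (adjusted p = 0.0132), a value that sets 1 Xevinapant sample against 2 vehicle samples, which alone give the spread. In tumor cells 0 of 9 genes were called by edgeR and 0 by DESeq2, where 0% of all 14409 genes were called by edgeR (1648 at an unadjusted p under 0.05, 307 called by DESeq2). Angpt2 was at 3.04, 1.58 and 1.10 CPM in vehicle and at 4.68 and 3.45 CPM in Xevinapant samples, without overlap (1.05 ± 0.46, adjusted p = 0.441). Apln differed by 0.48 ± 0.26 (adjusted p = 0.485), Cldn5 by 0.71 ± 0.41 on 72 UMIs, Tek by 0.58 ± 0.42 on 67 UMIs, and Angpt1 by -0.15 ± 0.25. Esm1 differed by -0.16 ± 0.36, Plvap by -0.24 ± 0.31, Aplnr by 0.022 ± 0.36 and Mfsd2a by 0.099 ± 0.37. In the same tumor cells the fibroblast panel was at 28.1 to 84.7 CPM in vehicle and 89.3 to 257 CPM in Xevinapant samples, highest in Xevinapant 1+2, which also had the most Angpt2. The immune panel (37.6 to 58.6 against 61.2 to 82.4 CPM) and the endothelial panel (27.1 to 32.7 against 32.8 to 33.8 CPM) did not overlap between the groups either, and the part of these in the tumor values was not tested.

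**Figure D5:**
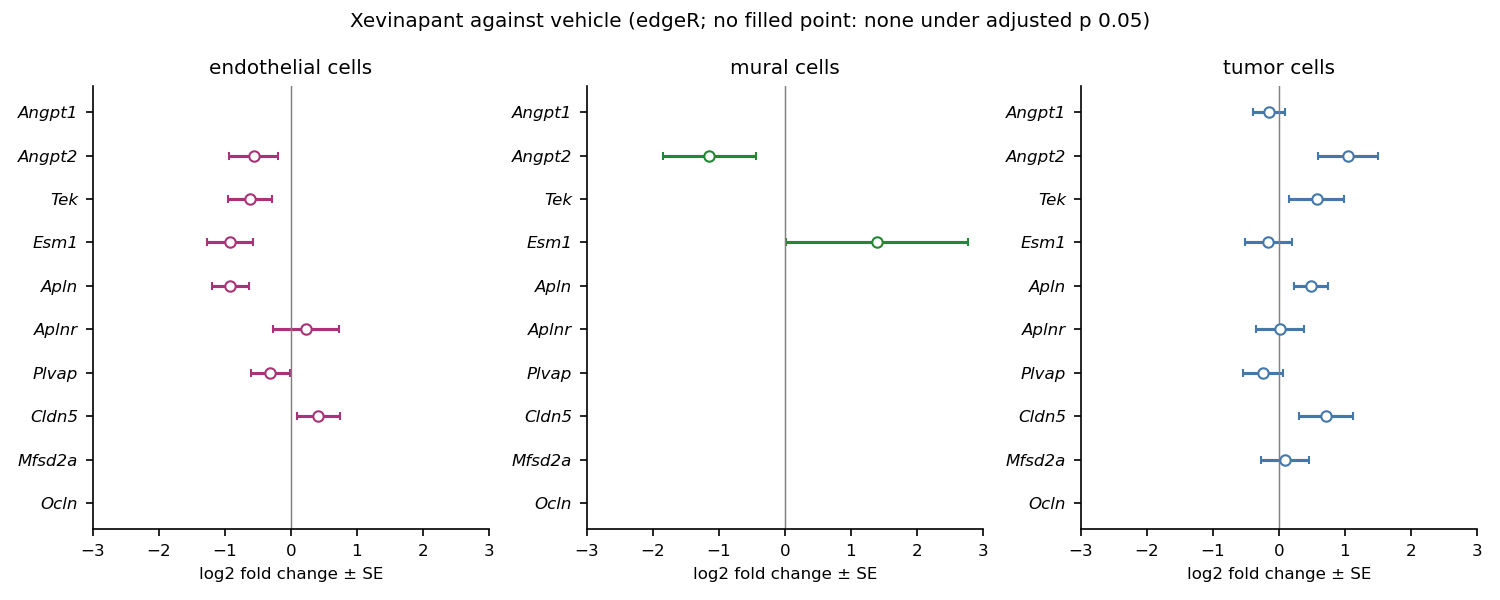
Log2 difference between Xevinapant and vehicle (± SE, edgeR) of the genes that could be tested in endothelial, mural and tumor cells. Open points have an adjusted p of 0.05 or more, which holds for every point drawn. Apln and Esm1 stand at -0.92 in endothelial cells and Angpt2 at 1.05 in tumor cells.

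Whether the difference itself depended on the class was tested with an interaction of class and treatment, a comparison added after the data were seen. Of 9 genes 2 were called, where 0.459% of all 13942 genes were. The Xevinapant effect in endothelial cells minus that in tumor cells was -1.65 ± 0.36 for Angpt2 (adjusted p = 0.00824) and -1.48 ± 0.35 for Apln (adjusted p = 0.0205). Each call was lost without some single samples: that of Angpt2 without vehicle 2 (-1.12, adjusted p = 0.0803), vehicle 4 (-1.51, adjusted p = 0.0833) or Xevinapant 1+2 (-1.05, adjusted p = 1), and that of Apln without vehicle 2 (-1.25, adjusted p = 0.196), Xevinapant 1+2 (-1.48, adjusted p = 0.210) or Xevinapant 3+4 (-1.45, adjusted p = 0.152). Tek (-1.18 ± 0.48, adjusted p = 0.717) and Esm1 (-0.73 ± 0.38, adjusted p = 1) were not called, nor were Aplnr (0.15 ± 0.41), Plvap (-0.15 ± 0.35), Cldn5 (-0.22 ± 0.42), Angpt1 (1.31 ± 1.28) and Mfsd2a, whose vehicle endothelial UMIs were 0. Both calls were lost without either Xevinapant 1+2 or vehicle 2, which had the highest (257 CPM) and the lowest (28.1 CPM) fibroblast panel in their tumor cells, and the panels that were higher in Xevinapant tumor cells, with the Apln of fibroblasts given above, were not tested for their part in the interaction.

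Detection was compared at equal depth. With 3 against 2 samples the smallest two-sided p that exact permutation allows is 0.2, and none of 26 tests of thinned shares passed. The groups did not overlap in 5 of them. A random split separates 3 against 2 samples with a probability of 0.2, and 2 against 2, as in the mural tests, with 0.333. The share over all genes was not computed, so these counts are not read as a result about the 10 genes. Apln was in 78.9% ± 6.48 of vehicle and 59.9% ± 10.6 of Xevinapant endothelial cells (exact permutation p = 0.2, adjusted p = 1), and Aplnr in 54.9% ± 4.25 and 39.5% ± 13.2. In tumor cells Angpt2 was in 0.387% ± 0.185 and 0.764% ± 0.0350, and Cldn5 in 0.0174% ± 0.0163 and 0.0757% ± 0.0141. In mural cells, without vehicle 2, Plvap was in 8.13% ± 2.65 and 2.08% ± 2.95. With vehicle 2 the vehicle shares ran from 0% to 10% and overlapped those of Xevinapant (0% to 4.17%). Unthinned, the groups did not overlap in 10 of 27 tests, and the smallest adjusted p of the exact permutation was 0.675. Tek was in 63.5% ± 8.96 of vehicle and 41.9% ± 5.88 of Xevinapant endothelial cells, without overlap. Thinned, it was in 45.4% ± 19.3 and 27.0% ± 4.54, with overlap. Apln was unthinned in 78.0% ± 7.67 and 68.1% ± 5.11 of endothelial cells, and the groups overlapped.

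The endothelial cells themselves made up 0.327% ± 0.0269 of cells in the vehicle and 0.580% ± 0.0605 in the Xevinapant samples, without overlap (difference 0.253 percentage points, exact two-sided permutation p = 0.2, the smallest 3 against 2 samples can give). With each of the 8 matrices as a sample the shares were 0.325% ± 0.0978 and 0.580% ± 0.119 (exact permutation p = 0.0286), and with 1 panel gene fewer in the gate this p was 0.0571. The 8 matrices include the 3 pairs counted as 1 sample above, so that these p-values count more samples than were told apart. Mural cells made up 0.138% ± 0.0615 and 0.184% ± 0.0103 (exact permutation p = 0.6). The other classes moved with these shares. Tumor cells made up 76.8% to 81.6% of cells in the vehicle and 60.1% and 71.0% in the Xevinapant samples, immune cells 3.41% to 5.72% against 7.25% and 13.6%, and fibroblasts 0.298% to 0.899% against 0.770% and 3.23%. Of the gated cells that were not tumor cells, endothelial cells were 6.00% ± 1.52 in the vehicle and 4.84% ± 1.84 in the Xevinapant samples, with overlap (exact two-sided permutation p = 0.6), so that the difference above was not seen on that denominator, which was added after the data were seen. The mural difference turned to -0.00275 percentage points when the gate asked for 1 panel gene more.

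Finally, each gene was compared with 12747 genes by Pearson correlation of log2(CPM + 1) over the 25 combinations of class and sample. The genes most like it were Pcdh12 (r = 0.969) and Ets1 (0.960) for Angpt2, Nedd9 (0.954) and Ptprb (0.952) for Tek, Kitl (0.928) and Unc45b (0.927) for Esm1, Vwa1 (0.953) and Fam43a (0.941) for Apln, Emcn (0.970) and Kcne3 (0.968) for Aplnr, Arhgef15 (0.969) and Cyyr1 (0.967) for Plvap, and Prnd (0.975) and Kcne3 (0.969) for Cldn5. Angpt1 was most like Farp2 (0.879) and Cacna1c (0.876). Emcn is 1 of the markers of the endothelial gate. The mean level over samples of Mfsd2a and Ocln did not reach 5 CPM in any class, and they were not compared. The 25 points share 5 libraries and the class differences dominate them, so the correlations are given without a test.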

How the data were processed

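Single cells from orthotopic tumors were profiled with a 10x Genomics kit. The deposited matrices hold raw UMI counts per gene and barcode that the authors made with Cell Ranger on mm10. The labels name version 3.0 and the headers of the matrices version 7.1.0. One group is labelled total RNA and the other polyA RNA, and the Xevinapant matrices carry the word vehicle in their names, for which the labels were followed. The 10 genes and the gene lists were chosen with earlier results of these data known. One gene of the barrier list is counted with the list but not reported here.

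Barcodes with fewer than 200 genes, over 10% mitochondrial UMIs or a complexity under 0.8 were left out. Scrublet scores (scanpy 1.11.5) were ranked in each matrix and the highest 0.8% per 1000 barcodes removed (3905 barcodes), because the caller itself marked no doublet in 7 of 8 matrices. Cells passed a panel if at least 5 endothelial, 4 mural, 4 fibroblast, 5 immune or 4 tumor markers had a UMI, and no other non-tumor panel. Tumor cells also had UMIs of at most 2 endothelial and at most 2 mural panel genes, which limits the level of these panels in them. Non-tumor cells had at most 0.5 of the median tumor-panel level of the tumor cells of their matrix. This gate left 11 mural cells, too few for a fit, so mural cells were allowed to pass the fibroblast panel as well (79 cells), a change made after the data were seen. Of the cells left, 8728 passed no gate or more than 1.

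UMIs were summed per sample and class and tested with edgeR 4.0.16 (quasi-likelihood, TMM, filterByExpr, Benjamini-Hochberg over all genes tested, threshold 0.05), in samples with at least 10 cells of the class. DESeq2 1.42.0 was an alternative. Standard errors are the log2 difference divided by the root of the F statistic. Class comparisons, splits and the interaction had the sample as a block. The edgeR step was tested on simulated data. Shares were compared with exact permutation tests (scipy 1.17.1). Depth ranged from 71835789 to 300206053 UMIs per matrix. Those of the 10 genes that could be tested are named or given as a range in each comparison, of each list at most 4 genes in each direction past the threshold, and for each gene the 2 most alike; genes named outside this rule are said to be so or serve as examples. The alternatives were other gates, doublets kept, no low-count filter, no TMM, each matrix as a sample with and without the matrix number as a block, no shared barcodes, a low-count filter on the 2 classes compared, and each sample left out.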

Additional observations from a re-analysis of the deposited data

Results flagged for a closer look

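The Xevinapant effect differed between endothelial and tumor cells for 2 genes, by a test of the difference itself (edgeR, interaction of class and treatment). The endothelial effect minus the tumor effect was -1.65 ± 0.36 on the log2 scale for Angpt2 and -1.48 ± 0.35 for Apln. Neither gene was called in endothelial or tumor cells taken alone, and each interaction call was lost without any one of 3 of the 5 samples. Endothelial Angpt2 was 912 ± 528 CPM in vehicle and 631 ± 202 CPM in Xevinapant samples, with vehicle 2 alone at 1520 CPM.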

How the results depend on the processing

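The 7 endothelial genes stayed higher in endothelial than in tumor cells under every alternative run. The counts of genes called moved more. For Xevinapant in endothelial cells, 1 gene of all tested became 2 with each matrix as a sample, 6 with DESeq2 or without TMM, 117 with no low-count filter, 7 with doublets kept, 66 with no limit on the tumor panel, 5 with a stricter limit, 0 with 1 panel gene fewer, 27 with 1 more and 0 to 10 with 1 sample left out, and the members called went from 0 to 2 with no low-count filter. In mural cells, 0 genes became 5 with DESeq2, 96 with no filter, 8 with no tumor-panel limit, 94 with 1 panel gene fewer and 67 to 93 with 1 sample left out. Of the 10 genes, 1 was then called with 1 panel gene fewer and 0 to 1 with 1 sample left out. The fit with 1 panel gene more could not be made in mural cells, because too few samples had enough cells. In tumor cells, 0 genes became 788 with each matrix as a sample and 307 with DESeq2. Mural against tumor cells gave 5 of the 10 genes, 2 with 1 panel gene more and 3 to 6 with 1 sample left out. The barrier split gave 0 genes, 2 with the highest set against the lowest cells, 5 after thinning and 0 to 3 with 1 sample left out. The NPC split gave 2 to 4 of the 10 genes, and the interaction 0 to 2 of them and 22 to 101 genes, with 1 sample left out. The endothelial share difference was 0.255 percentage points with each matrix as a sample (exact permutation p = 0.0286, though 3 pairs of matrices were alike; 0.0571 with 1 panel gene fewer), and the mural one reversed to -0.00275 with 1 panel gene more. The causes were not tested.

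Reversed log2 differences were all of values not called in the reported fit, except Cldn5 in mural against tumor cells. For Xevinapant in endothelial cells they were Angpt2 0.10, Tek 0.20 and Plvap 0.42 with no tumor-panel limit and Plvap 0.084 with 1 panel gene more, and with 1 sample left out Angpt2 ran from -0.94 to 0.032, Aplnr from -0.55 to 0.75 and Cldn5 from -0.36 to 0.91. In mural cells Angpt2 was 0.0090 with no limit and 0.053 with 1 panel gene fewer, and Esm1 ran from -0.27 to 6.91. In tumor cells Aplnr was -0.013 with no filter and -0.016 with doublets kept, and the ranges were -0.62 to 0.20 for Angpt1, -0.35 to 0.045 for Esm1, -0.026 to 0.096 for Aplnr, -0.43 to 0.051 for Plvap and -0.22 to 0.37 for Mfsd2a. Mural against tumor cells with 1 panel gene more gave -7.01 for Aplnr and -5.97 for Cldn5, on 5 or fewer mural UMIs each. Angpt1 was 0.044 with the highest 25% by hypoxia. In the barrier split Apln was -0.29 and Cldn5 0.15 after thinning, with ranges of -0.47 to 0.16 for Esm1 and -0.0097 to 0.48 for Apln. The range was -0.50 to 0.096 for Mfsd2a in the NPC split. Esm1 in the cell cycle split was -0.13 without TMM and ran from -0.26 to 0.11. In the interaction, Aplnr ran from -0.44 to 0.80, Plvap from -0.57 to 0.15, Cldn5 from -1.01 to 0.22 and Mfsd2a, at 0 in vehicle endothelial cells and so without a bounded value, from -0.47 to 14.05. Fits without a Xevinapant sample hold 1 Xevinapant sample, assumed to vary like the vehicle ones.

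The labels give no replicate numbers. The matrices carry numbers, and a fit with each matrix as a sample and the number as a replicate block was added after the data were seen. In tumor cells the deviations from the group means correlated at 0.211, -0.0813, -0.199 and 0.142 for matrices 1 to 4 of the same number, so the numbers were not taken to pair samples. With this block 0 of the 10 genes were called and the counts over all genes were 22 in endothelial and 40 in tumor cells, with Cldn5 at -0.12 in endothelial and Aplnr at -0.054 in tumor cells. It could not be fitted in mural cells.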
